A study of Mus musculus with 8 samples.

Results

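The genes described here encode the RNA and protein parts of ribonuclease P and ribonuclease MRP, a pair of related ribonucleoprotein enzymes. There are 10 of them among 55487 entries of the counts table: the RNase P RNA gene Rpph1, its RNA-like relatives Rprl1, Rprl2 and Rprl3, the RNase MRP RNA gene Rmrp, and the protein genes Pop1, Pop4, Pop5, Pop7 and Rpp30. They were taken by symbol. The set was chosen by measured values: the difference of Rprl3 between the 2 groups in these libraries was known when the genes were named, so the differences between the groups are given for the members as a description, with no p-value, and they support nothing beyond themselves. The 10 genes occupy 12 entries, since Rprl1 and Rmrp are each listed under 2 Ensembl identifiers. Enough reads for the fit across all genes were found for 8 of the 10, and Rprl1 and Rmrp were not tested.

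RNase P removes the leader from the 5′ end of precursor transfer RNAs, and its RNA subunit is the catalyst. RNase MRP has a related RNA and largely the same proteins, and it cleaves the internal transcribed spacer of the ribosomal RNA precursor. Both RNAs are short, and both are made by RNA polymerase III.

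Germ cells were purified by fluorescence-activated cell sorting from the testes of fetal C57BL/6 mice, and their total RNA was sequenced after library preparation with a kit for very small inputs. All animals carried Oct4-eGFP, in which sequences of Oct4 (Pou5f1) drive a green fluorescent protein, and both groups are given as Oct4-eGFP+/+. The 4 libraries labelled KO came from Rhox10-null animals and the 4 labelled WT from littermates with wild-type Rhox10; the fetal age, the structure of the null allele and whether a library came from 1 animal or from pooled animals were not given in the sources used here. The p-values for other genes therefore measure the spread between these libraries, which may be technical.

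Library totals ran from 16346977 to 20311338 counts. Rhox10 itself, a homeobox gene on chromosome X, had between 17 and 25 counts in each WT library and between 10 and 22 in each KO library (log2 fold change -0.28, standard error 0.32), so these reads do not separate the labels. Defining germ-cell genes were present: the 9 germ-cell markers summed to 152 to 167 CPM (counts per 1000000, with library sizes adjusted by edgeR's TMM method) with the WT label and 149 to 160 with the KO label. Genes of other testis cells were more abundant in the same libraries, with the 6 Leydig-cell markers at 2866 to 2904 CPM against 2610 to 2654, and the 7 muscle and mesenchyme markers at 6250 to 6318 against 5981 to 6134. In RNA of a cell mixture, a change in the number of cells of one type and a change in RNA per cell cannot be told apart. Of 23190 genes tested across the whole table, 1193 were called at an adjusted p under 0.05 (edgeR), which is 5.14%. The split of 544 higher and 649 lower depended on the scaling, with 633 higher and 555 lower under upper-quartile scaling and 426 higher and 836 lower with library totals alone.

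The RNA genes are printed first, because the counts of each depend on how much of its sequence and position is its own. Rprl3 lies on chromosome 8 at chr8:3803069-3803358, minus strand (GRCm38; positions as in the counts table), and Rprl2 on chromosome 3 at chr3:22251374-22251663, plus strand. No other entry of the table lies within 10 kb of either. Rprl1 lies at chr6:69326844-69327170, minus strand, between immunoglobulin kappa variable segments, and Rpph1 at chr14:50807449-50807767, minus strand. The sequences are those of the GENCODE M21 transcripts, written as DNA from 5′ to 3′, whole for Rprl3 and Rprl2 and as bases 1 to 300 for Rprl1 (327 bases) and Rpph1 (319 bases). In the 3 relatives, capitals mark bases with no identical partner in Rpph1. In Rpph1, capitals mark bases with no partner in Rprl3.
Rprl3: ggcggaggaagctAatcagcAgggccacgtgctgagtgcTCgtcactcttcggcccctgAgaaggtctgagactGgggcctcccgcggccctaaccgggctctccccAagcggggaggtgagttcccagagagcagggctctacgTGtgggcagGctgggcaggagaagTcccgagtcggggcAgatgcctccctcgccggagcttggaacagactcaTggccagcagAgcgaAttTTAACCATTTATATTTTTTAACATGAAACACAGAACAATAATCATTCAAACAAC
Rprl2: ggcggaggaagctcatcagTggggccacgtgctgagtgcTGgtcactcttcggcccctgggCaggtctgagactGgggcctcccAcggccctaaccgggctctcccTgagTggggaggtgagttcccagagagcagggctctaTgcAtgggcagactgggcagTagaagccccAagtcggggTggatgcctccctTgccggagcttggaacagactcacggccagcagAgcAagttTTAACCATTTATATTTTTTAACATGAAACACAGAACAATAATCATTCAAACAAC
Rprl1: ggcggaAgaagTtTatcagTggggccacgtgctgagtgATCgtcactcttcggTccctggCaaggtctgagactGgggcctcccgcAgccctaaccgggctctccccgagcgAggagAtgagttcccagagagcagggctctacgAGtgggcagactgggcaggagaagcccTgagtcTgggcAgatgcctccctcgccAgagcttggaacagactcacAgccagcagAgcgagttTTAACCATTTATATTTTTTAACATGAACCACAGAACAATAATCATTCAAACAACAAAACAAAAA
Rpph1: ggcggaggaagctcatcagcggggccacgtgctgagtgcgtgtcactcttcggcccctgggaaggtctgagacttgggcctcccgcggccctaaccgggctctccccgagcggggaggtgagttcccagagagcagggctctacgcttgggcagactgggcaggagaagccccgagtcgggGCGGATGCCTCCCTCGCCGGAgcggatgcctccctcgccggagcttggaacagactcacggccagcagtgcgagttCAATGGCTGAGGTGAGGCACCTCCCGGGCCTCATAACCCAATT

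The 3 relatives resembled Rpph1 along their first 236 bases and then parted from it. Over that stretch Rprl3 matched Rpph1 at 221 of 236 aligned bases (93.6%), Rprl2 at 220 (93.2%) and Rprl1 at 215 (91.1%). In each alignment Rpph1 had 21 further bases. In that with Rprl3, capitalised above, they repeat base for base the 21 bases that follow them in Rpph1. The relatives carry this sequence once, with base differences, so which copy is left without a partner is a matter of alignment. Past the stretch, the relatives continued with a run of their own, capitalised above, that Rpph1 did not have. The last 56 bases of Rprl3 were identical in all 56 positions to those of Rprl2, and 55 of the 56 were matched in Rprl1. RefSeq ends the Rprl3 RNA before that run, at a length of 235 bases, so the entry that was counted is longer than the RefSeq RNA. Over their whole length of 290 bases Rprl3 and Rprl2 were identical at 267 positions and differed at 23.

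Exact matches between the copies were counted in windows. Of the 241 windows of 50 bases in Rprl3, 7 (2.91%) also occurred in Rprl2, and no window of 75 or 100 bases occurred in any other GENCODE gene. In Rpph1, 68.2% of the windows of 50 bases also occurred in transcripts of Ccnb1ip1, a gene of meiotic recombination whose first exon runs through it. The read length and the number of mismatches allowed were not given in the sources used here, so these shares describe exact matches alone.

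The RNA of RNase MRP was not counted in this table. Rmrp, whose human counterpart is mutated in cartilage-hair hypoplasia, has 1 entry of 281 bases (ENSMUSG00000115420, chr4:43492783-43493063, minus strand) and a second of 271 bases (ENSMUSG00000088088) that lies wholly inside it. Of the longer entry 96.4% is shared with the shorter, and 44.1% also overlaps Ccdc107 on the opposite strand. Over 8 libraries the 2 entries received 1 count and 0 counts. Rprl1 likewise had 1 count and 0 counts at its overlapping entries.

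Counts at shared bases were missing throughout the table. All 785 entries whose every base was shared with another entry of the same strand had 0 counts in all 8 libraries, and so did all 438 entries covered entirely from the opposite strand alone. Among the 43765 entries that shared no base, 19.4% had none. Reads on shared bases, of either strand, were thus given to neither entry. The counts at Rmrp therefore set no limit on this RNA, and its level cannot be read from these data. The longer Rprl1 entry has 93 bases of its own at its 3′ end, and it received 1 count in 8 libraries. RefSeq ends the Rprl1 RNA before those bases, at a length of 238 bases, so the 1 count bears on the longer transcript alone. Rpph1 was affected in part: 233 of its 319 bases (73.04%) lie in the first exon of Ccnb1ip1, and its own bases were positions 1 to 35 and 269 to 319 from its 5′ end.

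**Figure D1:**
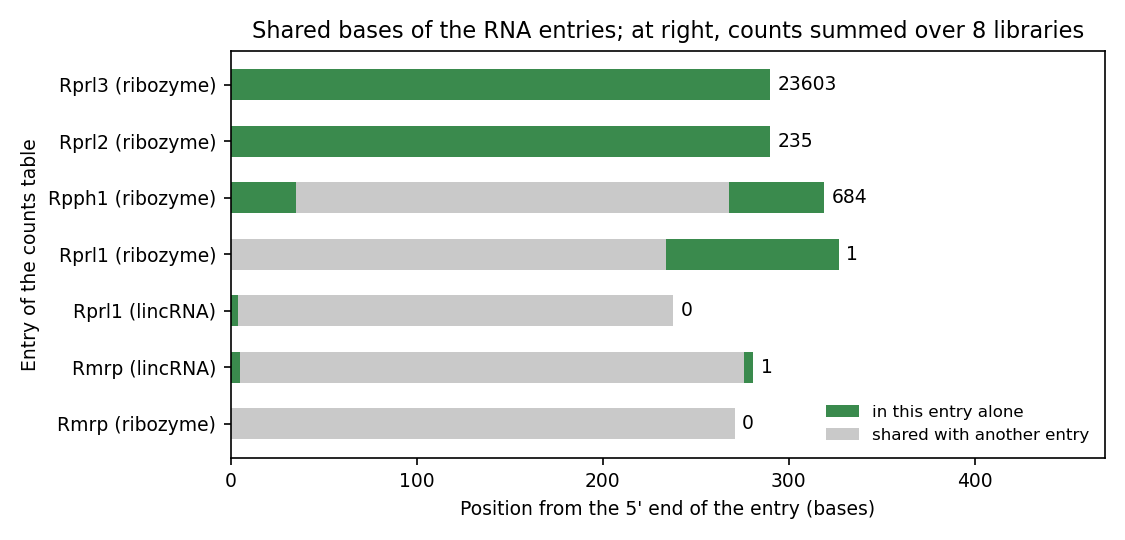
Horizontal bars show the 7 table entries of the 5 RNA genes, with position from the 5′ end in bases on the horizontal axis; green marks bases found in that entry alone and grey bases shared with any other entry. The number at the right of each bar is the count summed over 8 libraries, from 23603 for Rprl3 to 0 for the shorter Rmrp entry.

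Rprl3 had most of the counts of the RNA genes, and it was higher with the KO label. Its counts were 1510, 1786, 1745 and 1555 in WT replicates 1 to 4 and 3615, 3937, 4633 and 4822 in KO replicates 1 to 4. As scaled levels these were 90.9, 88.5, 91.8 and 89.9 CPM against 221, 235, 243 and 247 CPM. The libraries of each group lay close together, and the lowest KO library was far above the highest WT library. The means were 90.3 ± 1.42 and 236.7 ± 11.5 CPM (SD, n = 4), and the fitted difference was a log2 fold change of 1.39 (standard error 0.030), or 2.62-fold. Leaving out any 1 library, or changing the scaling, the filter or the test, gave log2 fold changes of 1.37 to 1.42.

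Rprl2 held far fewer reads and was also higher with the KO label. Its counts were 15, 13, 23 and 14 with the WT label and 29, 52, 40 and 49 with the KO label. These gave 0.903, 0.644, 1.21 and 0.810 CPM against 1.77, 3.11, 2.10 and 2.51 CPM, and the groups did not overlap. The means were 0.892 ± 0.238 and 2.37 ± 0.575 CPM (SD, n = 4), with a log2 fold change of 1.41 (standard error 0.26, so known far less closely than that of Rprl3). In every library Rprl2 had close to 1 count per 100 of Rprl3. Per 1000 counts of Rprl3 there were 7.28 to 13.2 of Rprl2 with the WT label and 8.02 to 13.2 with the KO label, with means of 9.85 ± 2.48 and 10.01 ± 2.32 (SD, n = 4). Whether any of the Rprl2 counts are reads of Rprl3 was not tested. Elsewhere, the near-identical 7SL RNA genes Rn7s1 and Rn7s2 had equal or almost equal counts in each library, such as 16188 and 16176 in WT replicate 1. Both had 19731 in WT replicate 3 and 20517 in KO replicate 4, so the levels of these near-identical 7SL genes are uncertain here. Rprl3 and Rprl2 differ at 23 of 290 bases, and their last 56 bases are identical.

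Rpph1, the gene of the RNase P RNA itself, was lower with the KO label in the bases that could be counted. Its own stretches are 35 and 51 bases long, and whether reads reaching past them were counted is not known. Its counts were 88, 126, 113 and 74 with the WT label and 58, 56, 93 and 76 with the KO label. Scaled, these were 5.30, 6.24, 5.95 and 4.28 CPM against 3.55, 3.35, 4.88 and 3.89 CPM. The groups overlapped, with KO replicate 3 above WT replicate 4. The means were 5.44 ± 0.870 and 3.92 ± 0.682 CPM (SD, n = 4), with a log2 fold change of -0.47 (standard error 0.15). The call at this gene depended on single libraries. It was lost without WT replicate 2 (log2 fold change -0.40), WT replicate 3 (-0.43), KO replicate 1 (-0.43), KO replicate 2 (-0.41) or KO replicate 4 (-0.47). It was also lost with DESeq2, with no filter on low counts and with a covariate for somatic and blood genes (-0.43). The level of Rpph1 cannot be set against that of Rprl3, because most of its bases are shared with Ccnb1ip1 and the number of reads lost there is not known.

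The divergent neighbour of Rpph1 is Parp2, a poly(ADP-ribose) polymerase gene whose start lies 73 bases away on the other strand. Its mean level was 25.6 ± 2.21 CPM in WT libraries and 28.7 ± 1.02 CPM in KO libraries (SD, n = 4). The log2 fold change of 0.17 did not pass the test (edgeR adjusted p = 0.114). Without WT replicate 2 it did (0.22, edgeR adjusted p = 0.0470). Ccnb1ip1, which shares the Rpph1 bases, had 1 to 13 counts a library and was not tested. Beside Rmrp, Ccdc107 (log2 fold change -0.21, edgeR adjusted p = 0.341) and Arhgef39 (0.14, edgeR adjusted p = 0.449) did not pass.

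**Figure D2:**
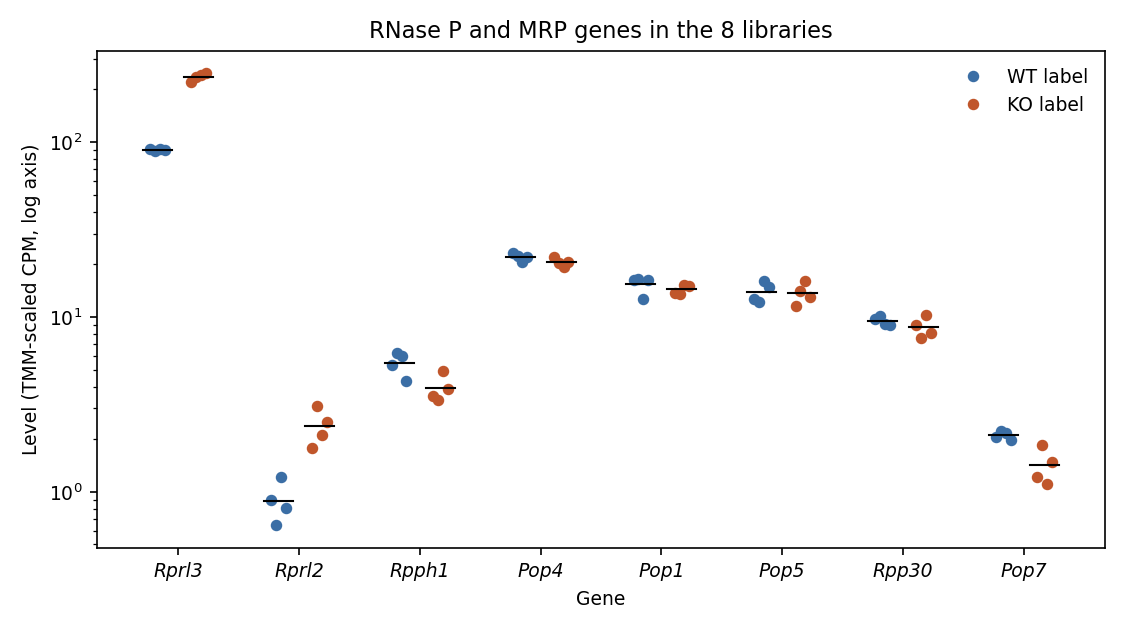
Points show the level of each tested member in each library, in TMM-scaled CPM on a log axis, with WT libraries in blue, KO libraries in orange and the group mean (n = 4) as a black bar. Rprl3 and Rprl2 separate the labels upward, at 90.3 against 236.7 CPM and 0.892 against 2.37 CPM, while the protein genes other than Pop7 overlap.

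Ratios of counts within a library need no scaling. They reuse the Rprl3 counts that were known when the set was chosen, so they describe the same difference and add no support to it. Rprl3 had 1.40 to 1.52 counts for each count of the 5 protein genes together with the WT label and 3.85 to 4.25 with the KO label. The means were 1.43 ± 0.0568 and 4.03 ± 0.178 (SD, n = 4). Against Rpph1, the ratio was 14.2 to 21.01 with the WT label and 49.8 to 70.3 with the KO label. These pairs of ranges did not overlap. The ratio of Rprl3 to Rprl2, in contrast, was 75.9 to 137.4 and 75.7 to 124.7, with ranges that overlapped almost fully. Rprl3 made up 92.7 to 94.6% of the counts of the RNA genes with the WT label and 97.2 to 97.6% with the KO label. Rmrp was not counted, and Rprl1 and Rpph1 could be counted only in part. These shares, and the size of the ratio to Rpph1, therefore do not give the amounts of the RNAs relative to each other.

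**Figure D3:**
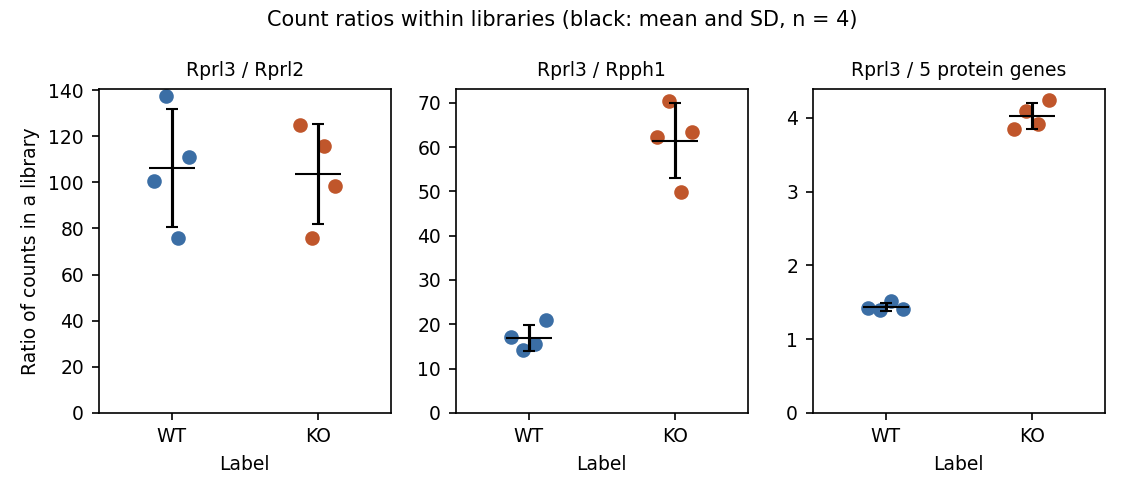
The 3 panels plot, for each library, the ratio of Rprl3 counts to those of Rprl2, of Rpph1 and of the 5 protein genes together, by label, with mean and SD in black (n = 4). The first ratio overlaps between labels at means of 106 and 104, and the others do not, at 16.9 against 61.5 and 1.43 against 4.03.

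None of the protein subunits was called. Pop1, the largest protein of both enzymes, had 16.4, 16.5, 12.6 and 16.3 CPM with the WT label and 13.6, 13.5, 15.2 and 15.1 CPM with the KO label. WT replicate 3 was the lowest of all 8 libraries, and the other 3 WT libraries were above every KO library. The log2 fold change was -0.10 (standard error 0.085). Pop4, which encodes a protein that contacts the RNA core and is also known as Rpp29, had 23.3, 22.3, 20.6 and 22.1 CPM against 21.9, 20.4, 19.3 and 20.5 CPM, with overlapping groups (log2 fold change -0.10, standard error 0.070).

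Pop5 encodes a small protein that pairs with the Rpp30 protein. Its levels were 12.7, 12.2, 16.1 and 14.8 CPM with the WT label and 11.6, 14.1, 16.1 and 13.1 CPM with the KO label, a full overlap (log2 fold change -0.02, standard error 0.088). Rpp30 had 9.75, 10.2, 9.11 and 9.02 CPM against 9.05, 7.59, 10.3 and 8.05 CPM, again with overlap (-0.12, standard error 0.11). Pop7, whose product is also known as Rpp20 and binds the RNA as a pair with Rpp25, was the least abundant protein gene, with 20 to 45 counts a library. It had 2.05, 2.23, 2.16 and 1.97 CPM with the WT label and 1.22, 1.85, 1.10 and 1.49 CPM with the KO label. Its groups did not overlap, and the log2 fold change was -0.57 (standard error 0.24), but it was not called.

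Among the 8 members tested, Rprl3 and Rprl2 were called higher, Rpph1 lower and the 5 protein genes neither, beside 2.35% called higher, 2.8% called lower and 5.14% called in all among the genes tested; nothing is read from that count, since the members were named with this contrast known. Groups did not overlap for 3 members, Rprl3, Rprl2 and Pop7, and for 9.44% of all genes tested. The median log2 fold change was -0.10 over the 8 members and 0.0020 over all genes. All 5 protein genes had values below 0, and none was called by edgeR, DESeq2 or limma voom. Together their counts came to 60.5 to 64.2 CPM with the WT label and 57.4 to 62.01 CPM with the KO label.

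Levels per length of gene were set in order for the 7 members counted over all or nearly all of their bases, which leaves out Rpph1, Rmrp and Rprl1. With the WT label Rprl3 had 311 ± 4.90 CPM per kilobase (SD, n = 4), followed by Pop4 at 7.75 ± 0.394, Pop5 at 6.08 ± 0.781, Pop1 at 4.07 ± 0.492, Rprl2 at 3.08 ± 0.820, Rpp30 at 2.28 ± 0.130 and Pop7 at 1.94 ± 0.108. Rprl2 and Rpp30 differed by less than the SD of Rprl2, and the other neighbours in this order by more than the larger SD of the pair. With the KO label Rprl3 stood at 816 ± 39.8 and Rprl2 at 8.18 ± 1.98 CPM per kilobase, while Pop4 had 7.21 ± 0.369, within the spread of Rprl2.

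The remaining proteins of the enzymes, which are no members, were asked whether they moved with the RNA. They did not pass: of Rpp14, Rpp21, Rpp25, Rpp25l, Rpp38 and Rpp40, none of the 6 was called by edgeR, DESeq2 or limma voom, and none had an unadjusted p under 0.05. Rpp25, the partner of Pop7, averaged 8.16 ± 0.658 CPM in WT and 9.22 ± 0.711 CPM in KO libraries (SD, n = 4), a log2 difference of 0.17 (edgeR adjusted p = 0.466). Rpp38, which binds a kink in the RNA, averaged 2.88 ± 0.517 and 2.44 ± 0.320 CPM, a log2 difference of -0.24 (edgeR adjusted p = 0.627). Rpp40 (log2 fold change 0.095), Rpp14 (0.067), Rpp21 (-0.11) and Rpp25l (-0.01) lay closer to 0. The mitochondrial RNase P has no RNA and consists of 3 proteins. Its genes Trmt10c (-0.04), Hsd17b10 (0.059) and 1110008L16Rik (-0.06), the symbol here for the nuclease subunit PRORP, were likewise not called by edgeR, DESeq2 or limma voom, and none of the 3 had an unadjusted p under 0.05.

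**Figure D4:**
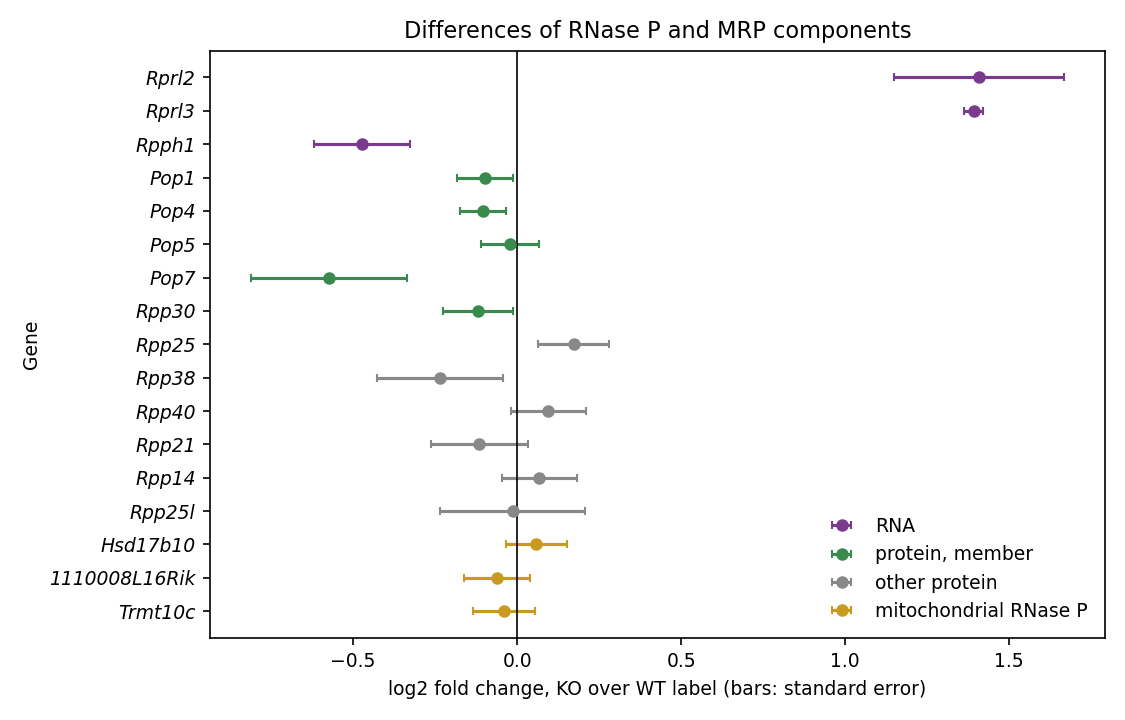
Points give the log2 fold change, KO over WT label, of the 8 tested members, the 6 other protein genes and the 3 mitochondrial RNase P genes, with the standard error as a bar. Rprl2 and Rprl3 lie at 1.41 and 1.39, Rpph1 and Pop7 at -0.47 and -0.57, and the other genes between -0.24 and 0.17.

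The lists of genes that make and use these RNAs are short, and 5.14% of all genes were called, so nothing is read from counts of 0 in lists of this size. RNA polymerase III transcribes short RNAs such as these, and of 32 genes of its subunits and factors none was called by edgeR, DESeq2 or limma voom. Their median log2 fold change was 0.024, and 2 had an unadjusted p under 0.05: Tbp, the TATA-binding protein gene (-0.13, edgeR adjusted p = 0.192), and Gtf3c3, a TFIIIC subunit gene (0.13, edgeR adjusted p = 0.264). Of 14 genes of transfer RNA trimming and splicing none was called by any of the 3 tools, with a median of -0.01. An unadjusted p under 0.05 was found at 1 gene, Ssb, which encodes the La protein of newly made polymerase III transcripts (-0.06, edgeR adjusted p = 0.314), followed by Fam98b of the transfer RNA ligase complex (-0.15, edgeR adjusted p = 0.394).

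Of 12 genes of ribosomal RNA spacer processing, the pathway of RNase MRP, 2 fell, none rose and 10 did not pass, with a median of 0.042. Over all genes tested, 2.8% were called lower, and nothing is read from a count in a list this short. Nol12, a nucleolar ribonuclease gene, was at 33.3 ± 4.01 CPM in WT and 28.6 ± 1.70 CPM in KO libraries (SD, n = 4), a log2 difference of -0.22 (edgeR adjusted p = 0.0109). Its call was lost without WT replicate 3 (-0.13, edgeR adjusted p = 0.303), without KO replicate 3 (-0.19, 0.0851) and with DESeq2. Pdcd11, which encodes the RRP5 assembly factor, was at 100.9 ± 0.710 and 93.6 ± 2.42 CPM (-0.11, edgeR adjusted p = 0.0446). That call was lost when any library other than KO replicate 4 was left out (edgeR adjusted p from 0.0657 to 0.142). It was also lost with upper-quartile scaling (adjusted p = 0.0755), no filter on low counts (0.0986), DESeq2 (0.0772), limma voom (0.0615) and the somatic and blood covariate (0.118).

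Of 7 other short RNAs made by RNA polymerase III that were tested, 3 rose, none fell and 4 did not pass, with a median of 0.10. The share called higher over all genes tested was 2.35%, and nothing is read from a count in a list this short. Rn7sk, the 7SK RNA that holds the elongation factor P-TEFb, had 2974, 3035, 3078 and 2919 CPM with the WT label and 3105, 3269, 3292 and 3243 CPM with the KO label. Every KO library was above every WT library, at a log2 fold change of 0.10 (standard error 0.016, edgeR adjusted p = 7.18e-08), a call lost with limma voom (adjusted p = 0.0708). Bc1, a cytoplasmic RNA known from neurons and germ cells, rose by 0.31 (edgeR adjusted p = 0.0111). Rny3, a Y RNA gene, rose by 0.59 (edgeR adjusted p = 0.0119). The Bc1 call was lost without WT replicate 3 (0.22, edgeR adjusted p = 0.179) or KO replicate 3 (0.29, 0.0574), and the Rny3 call without WT replicate 1 (0.44, 0.142), KO replicate 1 (0.48, 0.0926) or KO replicate 2 (0.50, 0.0968). With DESeq2 both calls were lost, at adjusted p = 0.0520 for Bc1 and 0.0750 for Rny3, and the Rny3 call was lost with the somatic and blood covariate (0.40, edgeR adjusted p = 0.290). The vault RNA gene Vaultrc5 (0.72, edgeR adjusted p = 0.347) and the 7SL genes Rn7s1, Rn7s2 (0.034 each) and Rn7s6 (0.067) did not pass. Rn7s1 and Rn7s2 had almost the same counts in every library, so they are not separate results.

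**Figure D5:**
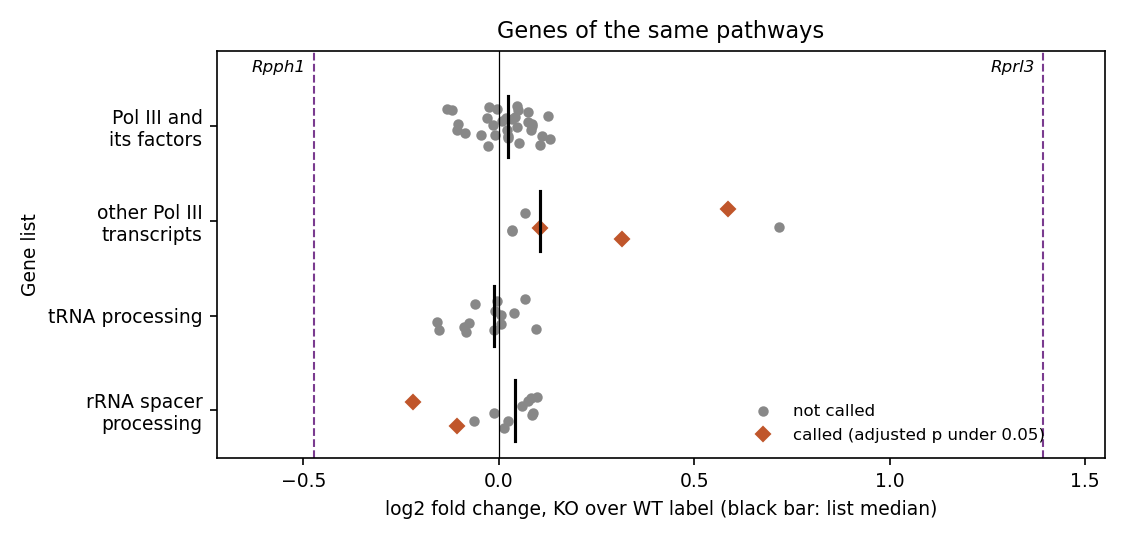
Each point is the log2 fold change, KO over WT label, of 1 gene in 4 lists of related genes, with called genes as orange diamonds and list medians as black bars. The dashed lines mark Rprl3 at 1.39 and Rpph1 at -0.47, and all genes of the lists lie between -0.22 and 0.72.

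Other short genes were described as a class. Of 1275 tested entries of at most 400 bases that are no members, 32 were called higher and 15 lower, the median log2 fold change was 0.0014 and the largest was 1.001. Small nuclear RNA entries had a median of 0.47, with 6 of 90 called higher and none lower. Small nucleolar RNA entries had one of 0.11, with 11 of 108 called higher and none lower. Entries typed as miscellaneous RNA had 8 of 62 called higher and Cajal body RNA entries 2 of 11, with none lower in either. Of 83 microRNA entries 0 were called higher and 1 lower. Among all genes tested, 2.35% were called higher and 2.8% lower. Within 1 Mb of Rprl3, a span chosen after its value was seen, 39 genes were tested, with a median of 0.016. The insulin receptor gene Insr was the 1 gene called (0.10, edgeR adjusted p = 0.0433).

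The genes whose pattern over the 8 libraries lay closest to that of Rprl3 were taken by the smallest root mean square difference of their log2 CPM from their own WT mean, among 17590 genes. They were Gfra1, which encodes the GDNF co-receptor (0.099 on the log2 scale), Adgrg2, an adhesion receptor gene of efferent ducts (0.17), Ehf, an epithelial ETS factor gene (0.20), Cdh16, which encodes the kidney cadherin and is also on the list of tubule epithelium markers (0.22), and Egfl6 (0.24). All 5 had far lower levels than Rprl3, with WT means of 1.64 to 5.63 CPM. Because each gene was set against its own WT mean, this measure includes the difference between the labels. It therefore favours genes whose difference is close in size to that of Rprl3. Whether the 5 genes share anything with Rprl3 beyond that difference was not tested. The marker lists were chosen with earlier results of these data known, so the numbers called in them are a description. Of the tubule epithelium markers 7 of 7 were called higher. In sum they had 37.01 to 39.8 CPM with the WT label and 75.5 to 85.4 with the KO label. None of the 7 was at 0 in either group mean, Pkhd1 being the lowest at 1.34 CPM with the WT label. Erythroid markers went the other way, from 215 to 230.0 CPM down to 84.4 to 88.98, with 5 of 7 called lower. Of the germ-cell markers 2 of 9 were called higher and 2 lower, of the Leydig markers 4 of 6 lower, and of the endothelial markers 2 of 6 higher. Of the 4 macrophage and leukocyte markers tested none was called, with log2 fold changes from -0.66 to -0.09. Among all genes tested, 2.35% were called higher and 2.8% lower. Of the 7 muscle and mesenchyme markers, Ttn, the titin gene, was called lower. Its mean was 124.6 ± 2.19 CPM in WT and 57.5 ± 2.41 CPM in KO libraries (SD, n = 4), a log2 difference of -1.12 (edgeR adjusted p = 1.07e-89). Of the 7 Sertoli markers, the inhibin gene Inha was called lower (-0.14, edgeR adjusted p = 0.0040). With the mean level of the 7 somatic and blood lists as a covariate, the log2 fold change of Rprl3 was 1.40 (standard error 0.034) and that of Rprl2 1.41 (0.30). That mean joins lists that moved in opposite directions, and the part of tubule epithelium in the Rprl3 difference was not tested.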

How the data were processed

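Total RNA of sorted fetal germ cells was measured in 4 libraries labelled WT and 4 labelled KO. The authors deposited 1 table of raw counts per gene, with no normalization; the build GRCm38 and the programs featureCounts, Subread, DESeq2 and STAR 2.5.2b are named, per the submitters' processing notes, and their settings are not given in the sources used here. Per the file headers, the table also holds gene positions and lengths in bases. Symbols came from GENCODE M21 (55141 of 55487 entries), and 99.35% of the entries found there had the same span. No column lay outside the 8 libraries.

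Counts were fitted in R 4.3.3 with edgeR 4.0.16 (filterByExpr defaults, TMM scaling, robust quasi-likelihood test, two-sided, Benjamini-Hochberg adjustment over 23190 genes), and a gene was called at an adjusted p under 0.05. CPM are TMM-scaled; log2 CPM used a prior count of 2. On simulated counts the test made somewhat more false calls than its nominal share and recovered the smallest fold change simulated less often than the larger ones. Within groups, pairs of libraries differed by more than sampling (chi-squared per degree of freedom 1.68 to 3.60), so none was counted as a duplicate. Sequences were compared with Biopython 1.88 local alignment, and windows were searched on both strands of all GENCODE transcripts.

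The members, the lists and the tests were chosen with earlier results of these data known. Named genes are the members, entries that overlap a member or lie within 10 kb of an RNA member, all other RNase P proteins, up to 4 called genes by p from each other list (or 2 where none was called), and the 5 genes of average log2 CPM of at least 1 nearest to Rprl3 in pattern. A gene named outside this rule, such as Insr or a marker, was chosen after its value was seen. Alternatives were DESeq2 size factors, upper-quartile scaling, library totals, TMM on nuclear protein-coding genes, other filters, the tests of DESeq2 1.42.0 and limma voom 3.58.1, the replicate number as a block, a covariate of somatic and blood genes, leaving out the mitochondrial genome, and leaving out each library in turn.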

Additional observations from a re-analysis of the deposited data

Results flagged for a closer look

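In 5 of 70 groups of 4 libraries examined, 1 library stood apart from the other 3 by Dixon's criterion at the 95% level (a gap over 0.829 of the group's range); chance gives about 1 group in 20. Pop1 was at 12.6 CPM in WT replicate 3, against 16.3 to 16.5 in the other WT libraries. Rpp38 was at 3.64 CPM in WT replicate 4, against 2.53 to 2.71. Tbp was at 41.6 CPM in WT replicate 1, against 34.3 to 34.5. Cdh16 was at 2.53 CPM in WT replicate 1, against 1.68 to 1.69. Ehf was at 6.21 CPM in KO replicate 2, against 4.52 to 4.71.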

How the results depend on the processing

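Over 19 alternatives each, Rprl3 (1.37 to 1.42) and Rprl2 (1.26 to 1.60) kept their direction and call, and Pop1, Pop4, Pop7 and Rpp30 stayed below 0 and uncalled. Rpph1 stayed below 0 (-0.60 to -0.40) and was called in 11 of 19. Members called were 2 or 3 throughout. These refits reuse the same libraries, so for members named with this contrast known they show the effect of processing alone. The count over all genes was 1193, 785 with DESeq2 and 898 to 1040 with 1 library left out. Of the pathway genes 5 were called, 1 with DESeq2 (Rn7sk), 3 with limma voom, 3 with the covariate and 2 to 5 with 1 library left out. Pop5 turned to 0.020 with the covariate and ran from -0.11 to 0.055 with 1 library left out, above 0 in 4 of 8 cases (WT3, WT4, KO1, KO4). Rpp25l turned to 0.021 with the covariate and ran from -0.11 to 0.086, above 0 without WT4 or KO4. Rnf10, which overlaps Pop5, turned to 0.0014 with the covariate; all 3 were uncalled. With the replicate block 1249 genes, 3 members and 5 pathway genes were called and no named call changed; same-numbered libraries did not deviate together (correlations -0.0097 to 0.021), so the numbers are not taken as pairs. Depth limits Rprl2 and Pop7, at 13 to 52 and 20 to 45 counts a library. Their standard errors of 0.26 and 0.24 come from the fit and include the spread between libraries. Causes of these changes were not tested.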

Other observations

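The table holds 17 further entries typed as ribozymes, and 10 of them had a count. Gm26464, on chromosome 10, had 132 counts over 8 libraries and was the 1 entry among them with enough reads to be tested; its log2 fold change was -0.11. Those 17 entries had 183 counts in all, against 23603 at Rprl3. Around Rprl2, 5 genes within 1 Mb were tested, and around Rpph1 18; edgeR, DESeq2 and limma voom called none, and 0 and 1 had an unadjusted p under 0.05.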
